A study of Mus musculus with 34 samples.

Results

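The mRNA levels of 8 genes tied to the epithelial-mesenchymal transition (EMT) were followed in the kidneys of 34 mice. The genes were taken by name, as *Snai1*, *Snai2*, *Twist1*, *Twist2*, *Zeb1* and *Zeb2*, which encode transcription factors, *Vim*, which encodes the mesenchymal filament protein vimentin, and *Epcam*, which encodes an epithelial surface protein. All 8 were among the 23509 genes of the count tables, and all 8 were among the 15644 genes that passed the filter on low counts.

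Kidneys of C57BL6 mice were harvested on postnatal day 28 (P28) and their polyadenylated RNA was sequenced. *Pkd2*-KO mice carry floxed *Pkd2* alleles and a Cre recombinase under the *Pkhd1* promoter, which is active in kidney tubules, so that cells without this promoter activity keep the gene. They received PBS (n = 11) or RGLS4326 (n = 11), an anti-miR-17 oligonucleotide given at 20 mg per kg body weight, by subcutaneous injection on P10, P11, P12 and P19. Untreated, non-transgenic mice labelled wildtype (UNT, n = 12) received no injection, so that PBS against UNT joins the genotype and the injections. The labels spell the genotype Pdk2KO, and they name neither litters nor sexes. The study's own description of its sequencing counts fewer PBS mice than the labels do, with no word on which were used. All mice labelled PBS were kept here. *Pkd2*, the deleted gene, averaged 274 ± 34.4 CPM (SD, n = 12; CPM are counts relative to a common library size, after TMM scaling) in UNT, 160 ± 32.2 (n = 11) in PBS and 210 ± 23.8 (n = 11) in RGLS4326 kidneys, and no PBS mouse reached the level of any UNT mouse.

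In an EMT, epithelial cells loosen their junctions and take on filaments, matrix and motility of mesenchymal cells. The Snail, Twist and ZEB factors bind E-box motifs and repress epithelial genes, among them *Cdh1* and *Epcam*, and the miR-200 microRNAs and ZEB factors repress each other. In the adult kidney, vimentin is made by interstitial fibroblasts, endothelium, podocytes and leukocytes, while EpCAM is typical of the distal nephron and collecting duct and returns in injured tubules. ZEB2 is also a factor of macrophages and podocytes, and TWIST and SNAI2 are found in fibroblasts, so none of these genes marks a single cell type in whole kidney.

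RGLS4326 acts on microRNAs, so the mature sequences that bear on these genes are shown first, from RefSeq on GRCm38.p6, 5′ to 3′, with the seed (bases 2 to 8) in capitals. miR-17 is the target of the drug, and the other 5 are the miR-200 family, which falls into 2 seeds.

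mmu-miR-17-5p: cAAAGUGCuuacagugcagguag
mmu-miR-200b-3p: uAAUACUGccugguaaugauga
mmu-miR-200c-3p: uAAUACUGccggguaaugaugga
mmu-miR-429-3p: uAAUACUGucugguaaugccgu
mmu-miR-200a-3p: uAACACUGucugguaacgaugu
mmu-miR-141-3p: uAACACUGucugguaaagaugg

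Seed matches were searched on the sense strand of each gene's longest 3′ UTR in the annotation, as the 8-base match or either of its 7-base parts, each place counted once. For miR-17 these were GCACTTTA, GCACTTT and CACTTTA, and none of the 8 genes held one (0 of 8), whereas 21.2% of the 14193 tested genes with a 3′ UTR did. No match says only that these letters are not in these UTRs. For miR-200b, miR-200c and miR-429 (CAGTATTA, CAGTATT or AGTATTA), which 20.0% of genes matched, the *Zeb2* UTR of 4941 bases held 7 matches, the *Zeb1* UTR of 2401 bases held 5, and *Snai1* and *Snai2* held 1 each. Only 2 of the 14193 genes, *Zeb2* included, held as many as 7, and 14, *Zeb1* included, held 5 or more. For miR-200a and miR-141 (CAGTGTTA, CAGTGTT or AGTGTTA), which 25.0% of genes matched, *Zeb1* and *Zeb2* held 4 matches each and *Snai2* held 1. *Twist1*, *Twist2*, *Vim* and *Epcam* held no match to any of these seeds. The 3′ UTRs were of unequal length (342 bases in *Vim*, with a median of 1150 over all genes), and longer ones hold more matches.

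The 6 matches of 8 bases in the *Zeb2* UTR, on the minus strand of chromosome 2 in GRCm38, are shown with their neighbouring bases because *Zeb2* held the most such matches of the 8 genes. *Zeb1* held 3 matches of 8 bases, all to miR-200b, miR-200c and miR-429, and the other 6 genes held none. The first 4 match miR-200b, miR-200c and miR-429, the last 2 match miR-200a and miR-141, and capitals mark the match.

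chr2:44988108-44988115: cagtgcatCAGTATTAcgattcct
chr2:44987746-44987753: acccgtgtCAGTATTAgacgacta
chr2:44987661-44987668: aattttgtCAGTATTAcaccaaac
chr2:44987527-44987534: gtagtgtaCAGTATTAtagttctt
chr2:44988357-44988364: attttgtaCAGTGTTAaggcctaa
chr2:44987784-44987791: accagcttCAGTGTTAagctcacc

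**Figure D1:**
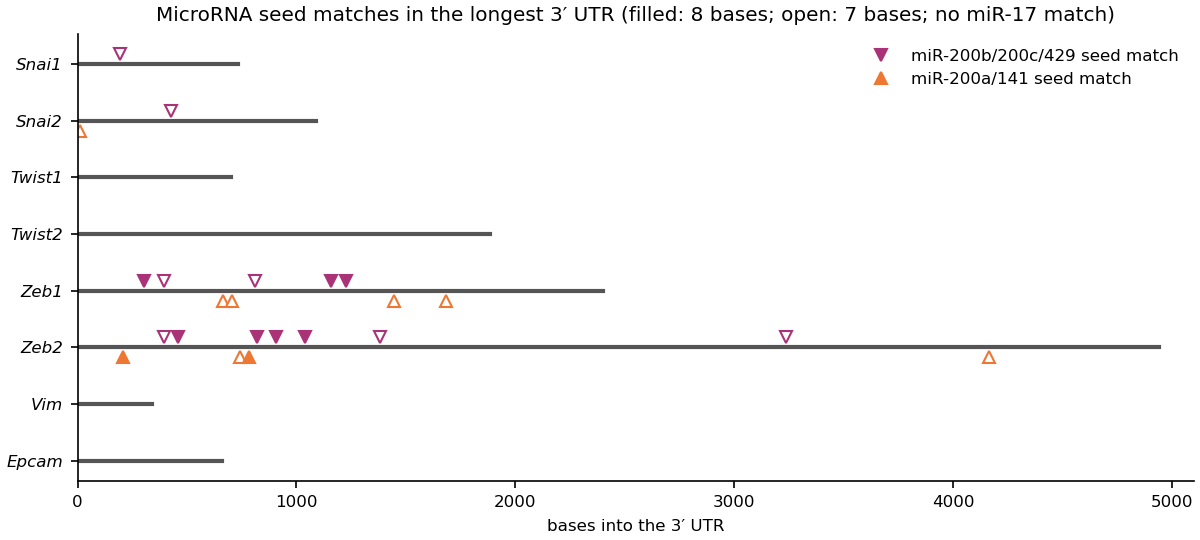
The lines give the length of the longest 3′ UTR of each gene, in bases from its start, and the triangles the matches to the 2 seeds of the miR-200 family, filled for 8 bases and open for 7 bases. *Zeb2* carries 11 matches and *Zeb1* 9, and no gene carries a match to miR-17.

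E-boxes were searched on both strands in promoters of 300 bases (RefSeq, GRCm38.p6, 250 bases before to 50 after the start). The motif CACCTG, read as CAGGTG on the other strand, was found in 20.2% of 32851 promoters. The *Epcam* promoter (chr17:87635729-87636028, plus strand) held 2, which begin 187 and 19 bases before the start, and it is shown with both in capitals because *Epcam* is the listed epithelial gene that these factors are known to repress.

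Epcam: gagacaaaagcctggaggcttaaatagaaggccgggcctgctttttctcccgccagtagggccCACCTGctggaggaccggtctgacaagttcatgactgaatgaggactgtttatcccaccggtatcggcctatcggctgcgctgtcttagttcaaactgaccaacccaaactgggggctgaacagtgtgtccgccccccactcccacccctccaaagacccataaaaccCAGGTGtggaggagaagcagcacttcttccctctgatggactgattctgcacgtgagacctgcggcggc

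The *Snai1* promoter held 1 such motif, 126 bases before the start. The *Vim*, *Twist1* and *Twist2* promoters and the 4 *Zeb2* promoters held 0. The promoters of *Snai2* and *Zeb1* were not analysed here, so the search covered 6 of the 8 genes. A motif match is a description of the sequence and not a site of binding.

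*Twist2* was the gene with the fewest reads. Each library held between 17603122 and 54981992 reads in genes, and counts of the 8 genes ranged from 2 to 21025. The libraries also differed in ways that follow the groups. The share of reads assigned to no gene, here the no-gene share, ran from 9.84% to 11.3% in UNT, from 5.18% to 9.0% in PBS and from 4.94% to 12.0% in RGLS4326 libraries. The names of the deposited tables hold 3 numbering series, each with 3 or 4 mice of every group. PBS replicate 9 stood apart, with a median correlation of 0.972 with the other mice of its group where the other 33 libraries had 0.984 to 0.993.

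At the level of all 8 genes, *Vim* and *Epcam* were far above the factors. Per length of exon (RPKM, the CPM divided by the kilobases of exon), *Epcam* averaged 73.9 ± 7.04 (SD, n = 12) in UNT kidneys and *Vim* 18.3 ± 2.77, with no overlap between them or with any factor. The factors followed at 3.02 ± 0.391 for *Snai2*, 2.42 ± 0.338 for *Zeb2*, 2.38 ± 0.281 for *Zeb1*, 1.86 ± 0.514 for *Snai1*, 0.809 ± 0.172 for *Twist1* and 0.0943 ± 0.0560 for *Twist2*. From *Snai2* to *Twist1* each neighbour in this order overlapped the next, and only *Twist2* stood below all others. In PBS kidneys *Epcam* (139 ± 15.5 RPKM, n = 11) remained above *Vim* (86.7 ± 9.34) without overlap, and *Snai1* (4.63 ± 0.757) and *Zeb2* (4.24 ± 0.949) became the highest factors. In RGLS4326 kidneys *Zeb2* averaged 5.79 ± 0.995 RPKM (n = 11) and *Snai1* 4.76 ± 0.957, and these overlapped.

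The first comparison, PBS against UNT, asks how cystic kidneys differ from normal ones. In PBS kidneys 6 of the 8 genes were higher, *Vim* 4.72-fold, *Snai1* 2.48-fold, *Twist1* 2.24-fold, *Twist2* 2.13-fold, *Epcam* 1.89-fold and *Zeb2* 1.75-fold, and 0 were lower. *Zeb1* and *Snai2* did not pass the test. Adjusted p is that of the quasi-likelihood test of edgeR with Benjamini-Hochberg adjustment over all tested genes, called below 0.05, here and throughout. The share of all tested genes called was 82.1% (43.1% higher, 39.0% lower), so 6 of 8 called (75.0%) was near the background, and the members are described by the size and direction of their changes. Their median log2 fold change was 1.0, beside 0.04 over all tested genes. Rises and falls cancel in that 0.04, and the median over all tested genes without regard to sign was 0.60. In whole kidney, fewer cells of a type and less RNA per cell cannot be told apart.

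*Snai1* (chromosome 2, 167538195 to 167542814, plus strand) encodes Snail, a zinc finger repressor of *Cdh1*. It ran from 1.5 to 4.28 CPM with a median of 2.92 in UNT, from 5.65 to 9.63 with a median of 7.58 in PBS, and from 5.12 to 9.86 with a median of 8.11 in RGLS4326 mice. Every *Pkd2*-KO mouse of both arms lay above every UNT mouse. The log2 fold change of PBS over UNT was 1.31 ± 0.14 (SE, adjusted p = 6.12e-11). Within the numbering series alone it was 1.40, 0.95 and 1.66, called in each, and the interaction with the series did not pass (adjusted p = 0.213).

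*Snai2* (chromosome 16, 14705852 to 14709385, plus strand) encodes Slug, the closest relative of Snail. It ran from 4.85 to 7.37 CPM (median 5.92) in UNT and from 3.95 to 7.71 (median 5.21) in PBS mice, and the groups overlapped over most of their ranges. Its log2 fold change was -0.17 ± 0.12 (adjusted p = 0.197), and the interval of 2 standard errors either side ran from 0.751-fold to 1.05-fold, which leaves out a rise of the size seen for *Snai1*. With the no-gene share as a covariate its sign was the other, at 0.24 and not called (adjusted p = 0.166). No test of *Snai1* against *Snai2* was made, and the values are given side by side.

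The Twist factors are basic helix-loop-helix proteins. *Twist1* (chromosome 12, 33957671 to 33959829, plus strand) ran from 0.761 to 1.57 CPM (median 1.45) in UNT and from 2.31 to 3.42 (median 3.10) in PBS mice, without overlap (log2 fold change 1.17 ± 0.11, adjusted p = 8.24e-12). *Twist2* (chromosome 1, 91801461 to 91848028, plus strand) had only 2 to 25 counts per UNT library and 18 to 35 per PBS library. Counting error adds to its spread at such counts, by an amount that was not tested. It ran from 0.0688 to 0.631 CPM (median 0.259) in UNT and from 0.447 to 1.27 (median 0.615) in PBS mice. Here 5 of 11 PBS mice lay above all UNT mice, and the log2 fold change was 1.09 ± 0.24 (adjusted p = 1.09e-04). Within the numbering series alone it was 1.71, 0.38 and 1.69, and in the second of these it was not called (adjusted p = 0.200). Exons of *Twist2* overlap those of *Gm29100* on the other strand by 1477 bases, and the strand setting of the counting is not given in the sources used here, so its counts are uncertain.

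*Zeb1* and *Zeb2* encode zinc finger and homeobox repressors. *Zeb2* (chromosome 2, 44983632 to 45117395, minus strand) ran from 34.1 to 58.1 CPM (median 48.9) in UNT and from 41.8 to 104 (median 85.9) in PBS mice. PBS replicate 9 had the 41.8, and the other 10 PBS mice lay above every UNT mouse. The log2 fold change was 0.81 ± 0.11 (adjusted p = 3.35e-08). *Zeb1* (chromosome 18, 5591860 to 5775467, plus strand) ran from 19.1 to 28.4 CPM (median 23.9) in UNT and from 15.5 to 31.0 (median 25.5) in PBS mice, with PBS replicate 9 again the lowest. Its log2 fold change was 0.05 ± 0.09 (adjusted p = 0.614), with an interval from 0.918-fold to 1.16-fold. Exons of *Zeb2* overlap the opposite-strand *Zeb2os* and *Gm27761* and the same-strand *Mir5129* by 662 bases in all, and those of *Zeb1* overlap *Gm10125* on the other strand by 198 bases, a small part of either gene.

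The *Zeb1* value depends on how libraries are scaled. The counts of UNT kidneys are more concentrated in a few genes, the top 10 genes taking 15.2% ± 0.956 of counts against 5.69% ± 0.621 in PBS. With library totals and no scaling factor, the median log2 fold change of all tested genes moved from 0.04 to 0.33, that of *Zeb1* to 0.34 (adjusted p = 0.00144, called higher), close to that median, and that of *Snai2* to 0.12 (adjusted p = 0.378), below it. The *Zeb1* and *Snai2* values under this scaling therefore moved with those of all genes. In the second numbering series alone *Zeb1* was at -0.13 (adjusted p = 0.274). With the no-gene share as a covariate *Zeb1* was also called higher, at 0.30 ± 0.11 (adjusted p = 0.0173). The 6 genes called in the fit without covariate were called in both of these fits too. The no-gene share did not overlap between UNT and PBS libraries, and with it as a covariate the value of *Epcam* went from 0.92 to 0.53 (adjusted p = 1.17e-07), that of *Snai1* from 1.31 to 0.99 (adjusted p = 1.96e-05), that of *Twist2* from 1.09 to 0.82 (adjusted p = 0.0436) and that of *Zeb2* from 0.81 to 1.13 (adjusted p = 1.92e-08).

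*Vim* (chromosome 2, 13573927 to 13582826, plus strand) showed the widest separation. It ran from 69.9 to 107 CPM (median 87.6) in UNT and from 353 to 489 (median 409) in PBS mice, so that the lowest PBS mouse had over 3 times the CPM of the highest UNT mouse. The log2 fold change was 2.24 ± 0.08 (adjusted p = 3.02e-23). *Epcam* (chromosome 17, 87635979 to 87651129, plus strand) moved in the same direction as *Vim*. It ran from 131 to 195 CPM (median 162) in UNT and from 247 to 351 (median 306) in PBS mice, without overlap (0.92 ± 0.08, adjusted p = 4.03e-13). The log2 ratio of *Vim* to *Epcam* CPM in the same mouse averaged -0.90 ± 0.24 (SD, n = 12) in UNT and 0.43 ± 0.13 (n = 11) in PBS, and the ranges of -1.20 to -0.48 and 0.22 to 0.61 did not overlap. In this comparison 4 of 8 members (*Snai1*, *Twist1*, *Vim* and *Epcam*) had groups that did not overlap, beside 42.5% of all tested genes.

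**Figure D2:**
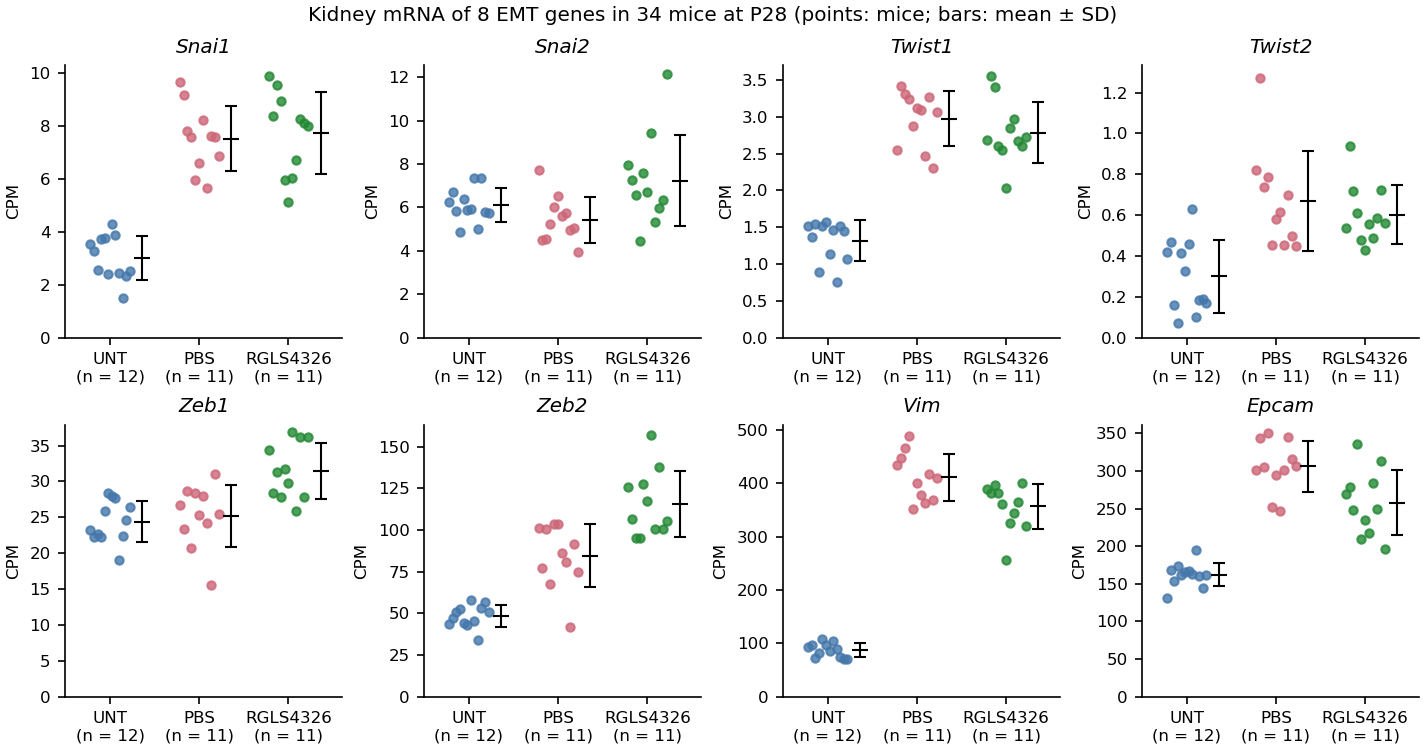
Each panel gives 1 gene in CPM, a point per mouse, for UNT (n = 12), PBS (n = 11) and RGLS4326 (n = 11), with the mean ± SD as a bar beside the points. All *Pkd2*-KO mice lie above all UNT mice for *Snai1*, *Twist1*, *Vim* and *Epcam*, while the groups overlap for *Snai2* and *Zeb1*.

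Other genes of the same programme moved on both its sides. All 14 mesenchymal products tested were higher in PBS kidneys (median log2 2.48), led by *Mmp14*, a membrane matrix protease, at 230 ± 44.6 against 21.5 ± 5.33 CPM (log2 3.42, adjusted p = 2.23e-23). All 12 epithelial junction genes were higher as well (median 1.15), led by *Cldn4*, a claudin of tight junctions, at 344 ± 111 against 23.7 ± 3.5 CPM (log2 3.86, adjusted p = 9.66e-21). Epithelial transcription and splicing factors were higher in 8 of 10 and lower in 2 of 10. Their lead genes were *Klf5*, a Krüppel-like factor (log2 2.84, adjusted p = 1.25e-20), and *Esrp2*, an epithelial splicing regulator that was lower (-0.18, adjusted p = 0.00171). Of other EMT transcription factors, 8 of 12 tested were higher and 1 was lower (median 0.59), with *Sox4* at 93.1 ± 20.5 against 12.5 ± 2.30 CPM (log2 2.90, adjusted p = 3.40e-22) and *Foxc1* lower (-0.38, adjusted p = 8.59e-06). Exons of *Sox4* overlap those of *Gm26735* on the other strand over 2616 of 4795 bases, so its counts are uncertain. With the no-gene share as a covariate 10 of 12 epithelial junction genes were called higher (median 0.72). Of mesenchymal products 13 of 14 were called higher in that fit (median 2.54).

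Partners of the listed proteins were higher for the most part. All 8 intermediate filament partners were higher (median 1.58), led by *Krt18*, a keratin of simple epithelia (log2 3.41, adjusted p = 7.11e-21). Of EpCAM partners and proteases 11 of 12 were higher and 1 was lower, with *Cd44*, a hyaluronan receptor, rising from 3.26 ± 0.649 to 55.4 ± 10.9 CPM (log2 4.08, adjusted p = 1.11e-24) and *Prss8*, the protease prostasin, lower at -1.01 (adjusted p = 1.99e-12). On the TGF-beta route to these factors 12 of 14 were higher and 2 lower, with the receptor gene *Tgfbr2* at 2.11 (adjusted p = 5.23e-23) and *Id1*, an inhibitor of helix-loop-helix factors, at -0.64 (adjusted p = 1.84e-06). Corepressors and degradation factors of Snail and ZEB proteins were higher in 10 of 13 and lower in 3 of 13, with a median of only 0.27. *Kdm1a*, a histone demethylase recruited by Snail, was at 0.91 (adjusted p = 1.68e-19) and *Suz12*, a Polycomb subunit, at -0.63 (adjusted p = 3.28e-09). Since 82.1% of all tested genes were called, these shares are a description. The medians stand beside 0.04 for all genes, or 0.60 without regard to sign. With the no-gene share as a covariate 7 of 8 intermediate filament partners were called higher (median 1.42). In that fit 87 of all 95 tested entries of the 8 lists were called.

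Markers of other cells were called as well, where 82.1% of all tested genes were called (43.1% higher, 39.0% lower). The groups did not overlap in 42.5% of all tested genes. All 7 fibroblast markers were higher in PBS kidneys, and their summed level ran from 456 to 1019 CPM in UNT and from 2155 to 4058 in PBS mice. All 6 macrophage markers were higher, with sums of 90.6 to 153 and 557 to 1407 CPM. All 5 proximal tubule markers were lower, with sums of 8205 to 11154 and 662 to 2387 CPM, and all 5 collecting duct principal cell markers were higher, with sums of 511 to 879 and 843 to 2313 CPM. Podocyte markers were lower in 4 of 5 and higher in 1, with sums of 586 to 728 and 354 to 459 CPM that did not overlap. Endothelial markers were lower in 3 of 5 and higher in 2, with sums of 426 to 533 and 309 to 475 CPM. All 5 markers of the thick ascending limb and distal tubule were lower, with sums of 7468 to 11655 and 2536 to 4947 CPM that did not overlap. One of them, *Pvalb*, a calcium-binding protein of the distal tubule, was almost absent from PBS kidneys, at 0.105 ± 0.281 CPM against 23.7 ± 5.18 in UNT (log2 -7.70, adjusted p = 2.16e-16). Intercalated cell markers were lower in 3 of 4 and higher in 1, smooth muscle markers lower in 2 of 3 and higher in 1, and lymphocyte markers higher in 2 of 5 and lower in 1. No marker of these lists was at 0 in all mice of a group. With the no-gene share as a covariate 42 of the 50 markers were called. Of principal cell markers 3 of 5 were called higher in that fit, and their median went from 1.42 to 0.79. The part of these cell markers in the changes of the 8 genes was not tested.

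The second comparison, RGLS4326 against PBS, asks what anti-miR-17 treatment changed in cystic kidneys. *Zeb2* was 1.37-fold higher in treated kidneys, *Snai2* 1.34-fold and *Zeb1* 1.25-fold, while *Epcam* was at 0.843-fold and *Vim* at 0.867-fold of the PBS level. All 5 calls were lost with the no-gene share as a covariate, where *Zeb2* was at a log2 of 0.28 (adjusted p = 0.169), *Snai2* at 0.18 (adjusted p = 0.388) and *Epcam* at -0.07 (adjusted p = 0.519). *Snai1*, *Twist1* and *Twist2*, which had been higher in PBS than in UNT kidneys, did not pass the test. Of all tested genes 33.8% were called (15.3% higher, 18.5% lower), beside 5 of 8 members (3 higher, 2 lower). The median over the members was -0.03 and that over all genes 0.00, or 0.18 over all genes without regard to sign. No member separated the groups (0 of 8), and 0.0639% of all tested genes did.

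*Zeb2* ran from 94.9 to 157 CPM with a median of 106 in RGLS4326 mice, and 7 of 11 lay above every PBS mouse. The log2 fold change was 0.45 ± 0.11 (adjusted p = 0.00549), and its direction in PBS against UNT was also up, so that treated kidneys lay further from UNT. *Zeb1* ran from 25.9 to 36.9 CPM (median 31.4), with 6 of 11 treated mice above every PBS mouse (0.32 ± 0.09, adjusted p = 0.00852). Without PBS replicate 9, the lowest PBS mouse in both genes, the values were 0.39 for *Zeb2* and 0.28 for *Zeb1*, and both were still called (adjusted p = 0.00734 and 0.0140). *Snai2* ran from 4.43 to 12.1 CPM (median 6.69), with the 12.1 in RGLS4326 replicate 11 and 3 of 11 treated mice above every PBS mouse (0.42 ± 0.12, adjusted p = 0.0131). Without that mouse the *Snai2* value was 0.32, and the call held (adjusted p = 0.0340).

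*Epcam* ran from 197 to 336 CPM (median 250) in treated mice, with 4 of 11 below every PBS mouse and 9 of 11 below the PBS mean (log2 -0.25 ± 0.08, adjusted p = 0.0185). *Vim* ran from 257 to 400 CPM (median 364), with 4 of 11 below every PBS mouse and 11 of 11 below the PBS mean (-0.21 ± 0.08, adjusted p = 0.0460). The *Vim* call was the least firm. Leaving out any of 13 of the 22 mice ended it (7 of the PBS and 6 of the RGLS4326 group), PBS replicate 9 among them (-0.19, adjusted p = 0.0746), and so did a fit with the replicate number as a block (-0.21, adjusted p = 0.0539), library totals with no scaling factor (adjusted p = 0.0661) and no filter on low counts (adjusted p = 0.0696). The calls of *Zeb1*, *Zeb2*, *Snai2* and *Epcam* held, in fits without the covariate, whichever of the 22 mice was left out. The log2 ratio of *Vim* to *Epcam* averaged 0.47 ± 0.21 (SD, n = 11) in treated mice and 0.43 ± 0.13 in PBS mice.

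*Snai1* had a log2 fold change of 0.04 ± 0.14 (adjusted p = 0.832) under treatment, with an interval from 0.852-fold to 1.24-fold, and in the second numbering series alone it was at -0.30 (adjusted p = 0.262). *Twist1* ran from 2.03 to 3.56 CPM (median 2.68) in treated mice (-0.09 ± 0.11, adjusted p = 0.529), with an interval from 0.805-fold to 1.09-fold. *Twist2* ran from 0.427 to 0.938 CPM (median 0.563) on 11 to 27 counts (-0.12 ± 0.24, adjusted p = 0.704), and its interval of 0.662-fold to 1.28-fold leaves room for a change as large as that of *Vim*. Its sign was not stable either, at 0.19 in the third series alone (adjusted p = 0.706) and 0.01 with the no-gene share as a covariate (adjusted p = 0.989).

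**Figure D3:**
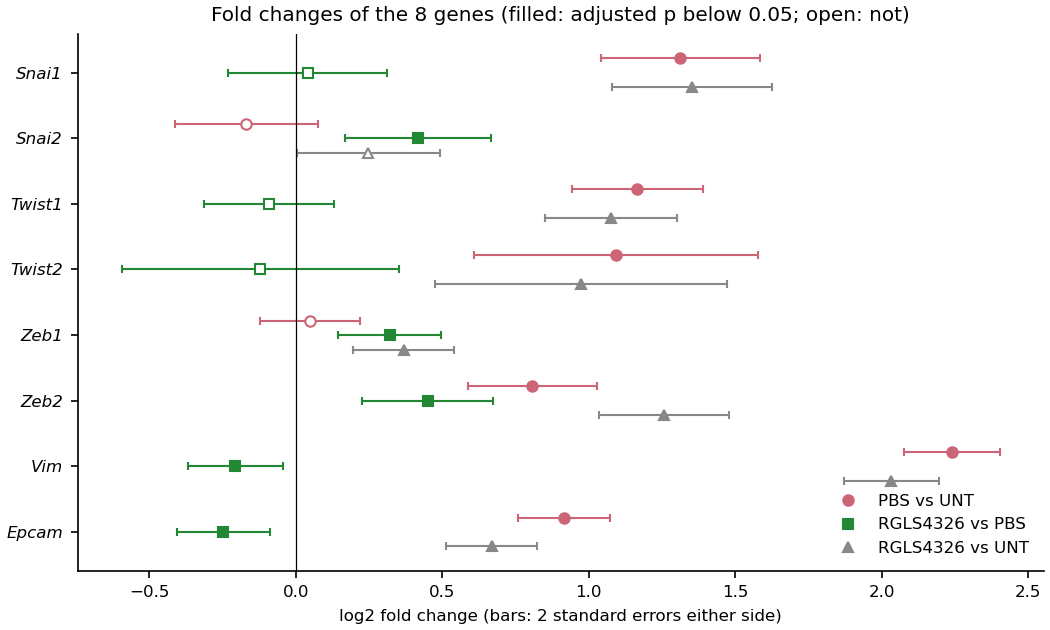
Points give the log2 fold change of each gene in the 3 comparisons, bars 2 standard errors either side, and filled points an adjusted p below 0.05. *Vim* stands highest in PBS against UNT at 2.24, and under treatment *Zeb2*, *Snai2* and *Zeb1* lie above 0 and *Vim* and *Epcam* below it.

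The treatment values moved with the no-gene share. In PBS libraries it averaged 6.75% ± 1.15 and in RGLS4326 libraries 8.80% ± 2.48. Of the treated mice, 4 (replicates 5, 6, 7 and 11) had 11.3% to 12.0% and the other 7 had 4.94% to 8.92%. *Epcam* ran from 197 to 234 CPM in those 4 and from 248 to 336 CPM in those 7, with no overlap. *Snai2* ran from 6.69 to 12.1 CPM against 4.43 to 7.93, and *Zeb2* from 106 to 157 against 94.9 to 138, with overlap in both. With this share as a covariate, 0 of 8 members were called (89 of all 15644 tested genes were), and beside the values given above, those of *Zeb1* and *Vim* shrank to 0.19 (adjusted p = 0.221) and -0.10 (adjusted p = 0.486). The labels give no measure of RNA quality, and the part of treatment and that of this property of the libraries cannot be told apart.

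Within PBS mice alone, *Epcam* fell with the same share (Pearson r = -0.80, permutation p = 0.0033, adjusted p = 0.0402 over 24 relations of the 8 genes in the 3 groups, and Spearman rho = -0.70, p = 0.0194, adjusted p = 0.0778, n = 11). The cause of this relation was not tested. Without the 2 mice farthest from the median share r was -0.87, and with values centred within the numbering series it was -0.72. For the other 7 genes in PBS mice r ran from -0.60 to 0.52, and none passed the adjustment. In UNT mice none of the 8 relations passed, and that of *Epcam* was weak (r = -0.28, permutation p = 0.381, adjusted p = 0.482, rho = -0.08, p = 0.818, n = 12), with r = 0.51 without the 2 mice farthest from the median share.

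In RGLS4326 mice 3 relations with the share passed the adjustment by both Pearson's r and Spearman's rho, *Epcam* and *Vim* falling and *Snai2* rising with it (adjusted p = 0.00192, 0.0471 and 0.0471 by r and 0.0295, 0.0467 and 0.0467 by rho). *Zeb1* and *Zeb2* passed by rho alone, rising with the share (adjusted p = 0.0467 for each). With values centred within the numbering series, r was -0.89 for *Epcam*, 0.86 for *Snai2*, 0.74 for *Zeb1*, 0.42 for *Zeb2* and -0.37 for *Vim*, the last 2 nearer to 0 than without centring. These 11 mice fall apart into the 4 and the 7 described above, so the size of each relation is given within the 7 mice of lower share. Among them r was 0.84 for *Zeb2* (exact permutation p = 0.0165, adjusted p = 0.132 over the 8 genes, rho = 0.89, p = 0.0123, adjusted p = 0.0984) and -0.79 for *Epcam* (exact permutation p = 0.0353, adjusted p = 0.141, rho = -0.64, p = 0.139, adjusted p = 0.370). Without the 2 mice farthest from the median share these r were 0.80 and -0.36. *Zeb1* had r = 0.64, *Snai2* 0.60 and *Vim* -0.37, and 0 of 8 relations passed the adjustment by r or by rho, with 2 and 1 at an unadjusted exact permutation p under 0.05. The share and the levels come from the same libraries.

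**Figure D4:**
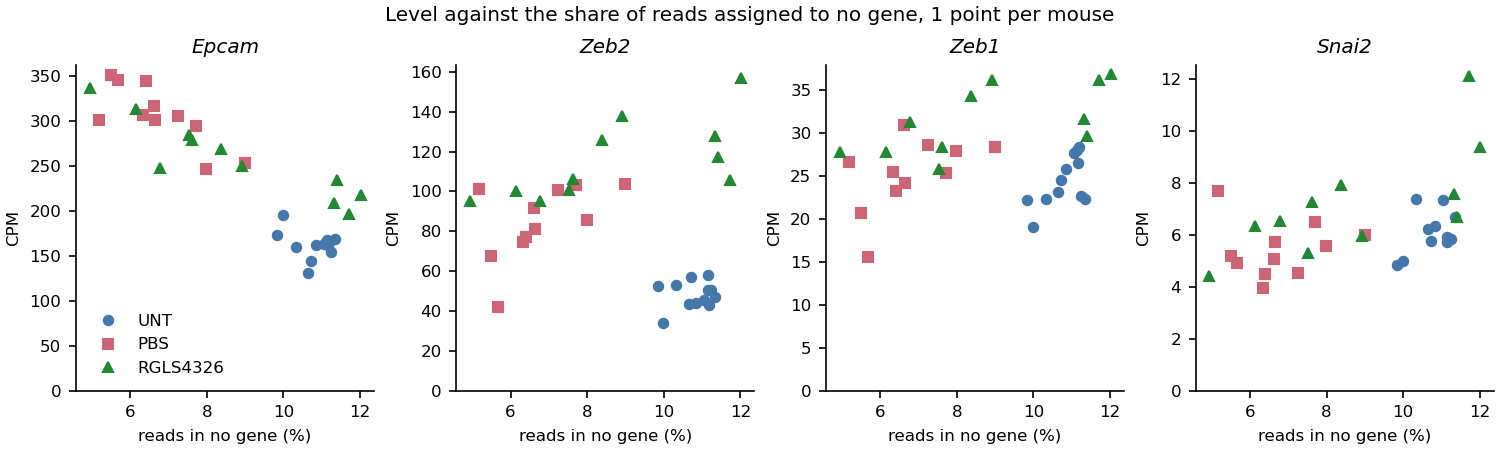
Each point is a mouse, with the share of its reads assigned to no gene in percent on the horizontal axis and the CPM of *Epcam*, *Zeb2*, *Zeb1* or *Snai2* on the vertical axis. *Epcam* is lower where the share is higher in both arms of *Pkd2*-KO mice, and the 4 treated mice from 11.3% to 12.0% have the 4 lowest *Epcam* levels of their group.

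Each numbering series alone gave the same direction for the 5 called genes. In the 3 series the log2 fold change of *Zeb2* was 0.19, 0.58 and 0.62, that of *Zeb1* 0.23, 0.37 and 0.39, that of *Snai2* 0.25, 0.45 and 0.60, that of *Epcam* -0.16, -0.36 and -0.28, and that of *Vim* -0.20, -0.35 and -0.12. The second series alone called *Zeb1*, *Zeb2*, *Snai2* and *Epcam*, and the first and the third called none of the 8 (with 3 or 4 mice a group). All 3 treated mice of the second series were among the 4 with a no-gene share from 11.3% to 12.0%. No interaction of treatment with the series passed the test for a member (smallest adjusted p of edgeR 0.750, with 0 of 8 at an unadjusted p under 0.05). With the series as a term in the fit, all 5 calls remained.

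**Figure D5:**
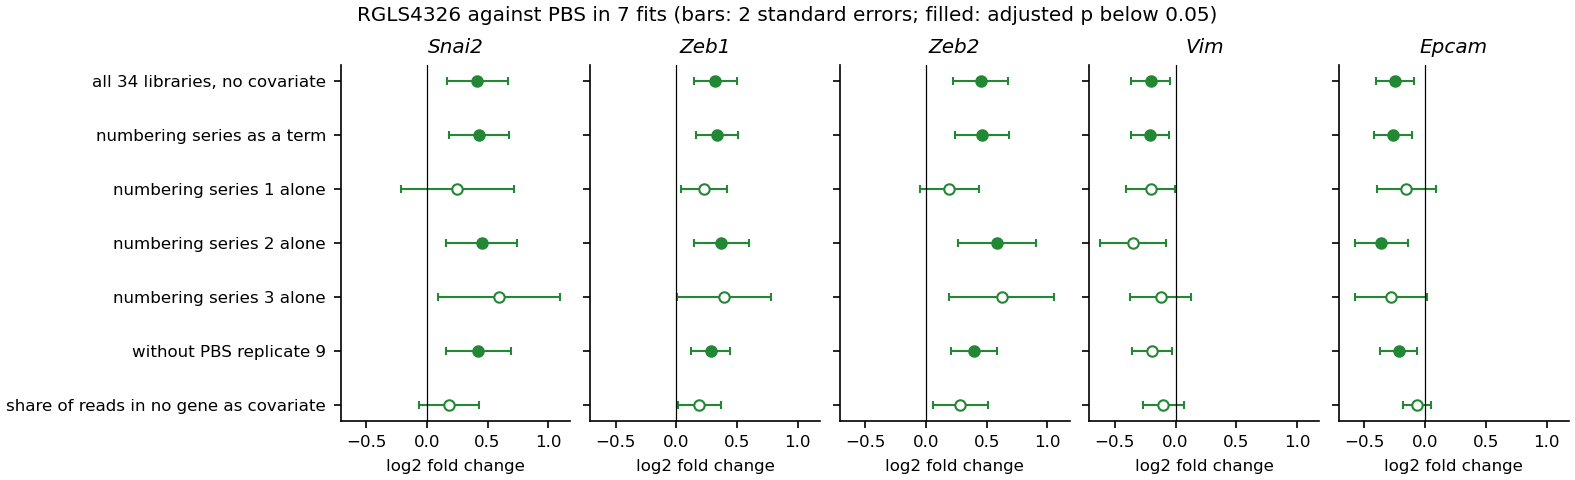
Panels give the log2 fold change of RGLS4326 over PBS for the 5 called genes under 7 fits, with bars of 2 standard errors either side and filled points where the adjusted p is below 0.05. All values keep their side of 0, and with the no-gene share as a covariate none of the 5 is called.

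Around the 8 genes, many epithelial genes were called lower in treated kidneys, where 18.5% of all tested genes were lower and 15.3% higher. These calls moved with the no-gene share. With that share as a covariate 1 of the 95 tested entries of the 8 lists of related genes was still called, *Krt19* (a gene in more than 1 list is counted in each), and the medians given here shrank to -0.22 for epithelial junction genes, -0.25 for epithelial transcription and splicing factors, -0.17 for EpCAM partners and proteases and -0.21 for intermediate filament partners. Of epithelial junction genes 9 of 12 were lower and 0 higher (median -0.39), led by *Rab25*, a small GTPase of epithelial recycling endosomes, at 28.9 ± 7.21 against 44.9 ± 11.5 CPM (-0.64, adjusted p = 0.00131). Epithelial transcription and splicing factors were lower in 6 of 10 (median -0.33), led by *Elf3*, an ETS factor, at 134 ± 30.5 against 220 ± 62.7 CPM (-0.72, adjusted p = 0.00181). EpCAM partners and proteases were lower in 8 of 12 (median -0.30), with *Cldn7*, a claudin that binds EpCAM, at 80.3 ± 15.7 against 116 ± 26.8 CPM (-0.53, adjusted p = 0.00300). Intermediate filament partners were lower in 6 of 8 (median -0.34), led by *Krt19*, a keratin (131 ± 39.4 against 284 ± 114 CPM, -1.11, adjusted p = 3.95e-04).

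In the other lists the share called was near or below the 33.8% of all tested genes, except for corepressors and degradation factors at 46.2%, and with the no-gene share as a covariate none of their genes was called. Of mesenchymal products 1 of 14 was higher and 2 were lower (median 0.02). *Cdh11*, a cadherin of fibroblasts, was higher at 129 ± 23.4 against 84.3 ± 23.8 CPM (0.61, adjusted p = 0.00513), and *S100a4*, a calcium-binding protein, was lower (-0.64, adjusted p = 0.00547), though 302 of its 584 exon bases are shared with *Gm42674* on the same strand. Other EMT transcription factors had 2 higher and 1 lower of 12 (median -0.09). *Tcf4*, a helix-loop-helix factor, was at 0.31 (adjusted p = 0.00420) and *Foxq1*, a forkhead factor whose exons overlap an opposite-strand transcript by 3200 bases, at -0.38 (adjusted p = 0.0138). On the TGF-beta route 1 of 14 was higher and 1 lower (median -0.06), *Skil*, a SMAD corepressor, at 0.29 (adjusted p = 0.0482) and the ligand gene *Tgfb3* at -0.31 (adjusted p = 0.0281). Corepressors and degradation factors had 2 higher and 4 lower of 13 (median 0.00), with *Suz12* at 0.37 (adjusted p = 0.00245) and *Kdm1a* at -0.17 (adjusted p = 0.00838), each opposite in sign to its value in PBS against UNT, with which this comparison shares the PBS mice.

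Cell markers were called here too, in a comparison where 33.8% of all tested genes were called (15.3% higher, 18.5% lower). With the no-gene share as a covariate 3 of their 50 genes were still called (*Pecam1*, *Tek* and *Slc5a2*, all higher, named after their values were seen). The medians of the lists moved by unlike amounts in that fit. They went from 0.64 to 0.58 for proximal tubule, from 0.22 to 0.30 for endothelial and from -0.45 to -0.54 for lymphocyte markers. Those of thick ascending limb and distal tubule markers went from 0.56 to 0.41 and those of podocyte markers from 0.27 to 0.16. Principal cell markers went from -0.59 to -0.28 and macrophage markers from -0.37 to -0.16. Fibroblast markers went from 0.11 to 0.22, intercalated cell markers from -0.17 to -0.16 and smooth muscle markers from -0.07 to 0.02. Principal cell markers were lower in 4 of 5, with summed levels of 440 to 1994 CPM in treated and 843 to 2313 in PBS mice. Proximal tubule markers were higher in 4 of 5, with sums of 1587 to 2725 and 662 to 2387 CPM. Thick ascending limb and distal tubule markers were higher in 3 of 5, with sums of 3933 to 5561 and 2536 to 4947 CPM, and endothelial markers were higher in 4 of 5, with sums of 418 to 519 and 309 to 475 CPM. Podocyte markers were higher in 4 of 5 (420 to 499 and 354 to 459 CPM) and macrophage markers lower in 3 of 6 (520 to 991 and 557 to 1407 CPM). Of fibroblast markers 1 of 7 was higher, with sums of 2654 to 3907 and 2155 to 4058 CPM. Lymphocyte markers were lower in 2 of 5 and intercalated cell markers in 1 of 4, and 0 of 3 smooth muscle markers were called. Their part in the values of the 8 genes was not tested.

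The third comparison, RGLS4326 against UNT, places treated kidneys beside normal ones. Here 7 of 8 members were higher (*Vim* 4.09-fold, *Snai1* 2.55-fold, *Zeb2* 2.39-fold, *Twist1* 2.11-fold, *Twist2* 1.96-fold, *Epcam* 1.59-fold and *Zeb1* 1.29-fold), beside 77.7% of all tested genes called and 40.8% higher. *Snai2* was at 1.19-fold and did not pass (log2 0.25 ± 0.12, adjusted p = 0.0623). It passed when any of 5 mice was left out and when the no-gene share entered as a covariate (0.42, adjusted p = 0.00142). With library totals and no scaling factor it was at 0.56 (adjusted p = 2.33e-04), where the median over all tested genes also moved, from 0.02 to 0.33. *Snai1*, *Twist1*, *Zeb2*, *Vim* and *Epcam* did not overlap between the groups, 5 of 8 beside 36.7% of all tested genes. *Zeb1* was at 0.37 ± 0.09 (adjusted p = 2.24e-04), with 8 of 11 treated mice above every UNT mouse. Its call was lost in the second and the third numbering series alone, at 0.24 and 0.45 (adjusted p = 0.0859 and 0.0627), and held in the first at 0.40 (adjusted p = 0.00135). *Twist2* was at 1.31 and 1.89 in the first and the third series and at 0.08 in the second, where it was not called (adjusted p = 0.813). The other 5 genes called were called in each series alone, at values that differed. *Snai1* was at 1.46, 0.65 and 1.83 in the 3 series and *Epcam* at 0.82, 0.40 and 0.66. The interaction with the series did not pass the adjustment for any member (for *Snai1*, adjusted p of edgeR 0.104), and 3 of 8 (*Snai1*, *Twist2* and *Vim*) had an unadjusted p under 0.05. Both comparisons of RGLS4326 share the treated mice, and both comparisons of PBS share the PBS mice, so these values are not independent.

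How the 8 genes vary among mice of the same group was examined on log2(CPM + 1), with 28 pairs in each group. None of the 84 correlations passed the adjustment (0 of 84 by Pearson's r, with 16 at an unadjusted permutation p under 0.05, and 0 of 84 by Spearman's rho, with 19). The strongest was that of *Zeb1* with *Zeb2* in PBS mice (r = 0.91, permutation p = 0.00118, adjusted p = 0.0752, and rho = 0.69, p = 0.0227, adjusted p = 0.180, n = 11). It rested on the 2 mice farthest from the median of *Zeb1*, PBS replicate 9 among them, since r was 0.52 without them. The same pair had r = 0.71 in RGLS4326 mice (permutation p = 0.0158, adjusted p = 0.114, rho = 0.71, p = 0.0180, r = 0.59 without 2 mice) and r = 0.37 in UNT mice (permutation p = 0.232, adjusted p = 0.487, rho = 0.04, p = 0.905, r = 0.06 without 2 mice). *Snai2* and *Epcam* ran in opposite directions in RGLS4326 mice (r = -0.79, permutation p = 0.00299, adjusted p = 0.0752, rho = -0.76, p = 0.00848, r = -0.53 without 2 mice). Both also ran with the no-gene share in these mice, at r = 0.75 for *Snai2* and -0.92 for *Epcam*.

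The genes whose levels ran most like those of each member, after the group mean was taken out, are given as a description over 34 mice with no test. *Zeb2* ran with *Nr3c1*, *Phldb2* and *Zkscan8* (r = 0.87, 0.86 and 0.86) and *Zeb1* with *Sema6d*, *Slfn5* and *Nin* (0.84, 0.83 and 0.82). *Epcam* ran with *Anxa4*, *Cd9* and *Chmp4b* (0.88, 0.88 and 0.86), which had log2 fold changes of 0.66, 1.31 and 0.78 in PBS against UNT, beside 0.92 for *Epcam*. *Vim* ran with *Efemp2*, *Tgfbi* and *Tagln* (0.83, 0.81 and 0.80), of which *Tagln* encodes a smooth muscle actin-binding protein and overlaps opposite-strand exons by 1349 bases. *Snai2* ran with *Ptn*, *Brinp1* and *Hoxd11* (0.83, 0.79 and 0.75) and *Snai1* with *Gm13889*, *Prkcdbp* and *Pus1* (0.80, 0.75 and 0.75). *Twist2* ran with *Ebf2*, *Serpinf1* and *Sfrp4* (0.82, 0.74 and 0.74) and *Twist1* with *Cebpb*, *Cpxm1* and *Spsb1* (0.70, 0.61 and 0.60). These likenesses share library, depth and the no-gene share.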

How the data were processed

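Kidney mRNA of 34 mice was sequenced from TruSeq stranded libraries. The authors trimmed reads (Trim Galore), mapped them with STAR to GRCm38 (mm10) and counted them per gene with HTSeq (version 0.6.1 in the submitters' processing notes), and deposited raw counts, 1 table per mouse. The annotation and the strand setting of the counting are not given in the sources used here. The deposited counts ranged from 17603122 to 54981992 reads in genes per library, the counter's 5 summary lines left out (4.94% to 12.0% of reads lay in no gene).

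Groups followed the labels. Counts were scaled by TMM, filtered with filterByExpr (15644 genes) and entered edgeR (version 4.0.16 under R 4.3.3), whose quasi-likelihood test was run in a single fit of 34 libraries and no covariate, with two-sided p adjusted by Benjamini-Hochberg over all tested genes. Each library was taken as a mouse, and p-values measure the spread between these mice. On simulated data for PBS vs UNT over 15572 genes, 95 of 99 genes changed by a log2 of 1 and 72 of 99 changed by 0.5 were recovered, with 6 false calls. Few genes were changed there, up and down alike, whereas 82.1% of tested genes were called in the data. Changes below 0.5 were not simulated. CPM are TMM-scaled, and RPKM divide them by the union of exons in GENCODE M21 (GRCm38), which may differ from the annotation used for counting. Correlations used two-sided permutation tests with 100000 resamples. Python 3.11.15, numpy 2.4.6, pandas 2.3.3, scipy 1.17.1 and matplotlib 3.10.9 were used.

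All 8 genes were named. From each list of related genes the called gene with the smallest p in either direction was named, in PBS vs UNT and RGLS4326 vs PBS, and for each member the 3 genes with the highest Pearson r. *Patj* and *Adgre1* were found under the older symbols *Inadl* and *Emr1*, and *Gsc* did not pass the filter. The members, lists and rules were chosen with earlier results of these data known. Alternatives were other size factors, DESeq2 (version 1.42.0), no filter, a replicate block, the numbering series, the no-gene share and only the 2 groups compared. Library totals without a scaling factor and leaving out each library in turn were added after seeing the data, as was the relation with the no-gene share within 7 treated mice (exact permutation test over all 5040 orders).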

Additional observations from a re-analysis of the deposited data

How the results depend on the processing

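Direction and side of the threshold were kept in 254 of 288 values of a member under an alternative (12 for each member and comparison, PBS replicate 9 left out among them), 24 lost the call, 4 gained it and 6 changed sign, none of them called before or after. In PBS against UNT these were *Zeb1* in numbering series 2 alone (-0.13) and *Snai2* with the no-gene share as a covariate (0.24) and with library totals (0.12, a scaling that moved the median of all tested genes from 0.04 to 0.33, so that *Snai2* stayed below it). In RGLS4326 against PBS they were *Snai1* in series 2 alone (-0.30) and *Twist2* in series 3 alone (0.19) and with the no-gene share (0.0099). The cause was not tested. The number of members called in RGLS4326 against PBS was 5. It was 0 with numbering series 1 alone, 0 with numbering series 3 alone (54 and 0 genes called over all), and 0 with the no-gene share as a covariate. Series 2 alone, with groups of a like size, called 4. The cause was not tested. Leaving out each library in turn gave 4 to 5 members in that comparison, 6 in PBS against UNT and 7 to 8 in RGLS4326 against UNT. The DESeq2 Wald test called the 5 genes that edgeR called.

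The number of correlated pairs rose from 0 to 1 without the 2 mice farthest from the median (*Snai2* with *Twist2* in UNT) and to 1 with values centred within the numbering series (*Zeb1* with *Zeb2* in PBS). The cause was not tested. Of 648 counts of called genes in the lists of related genes and markers, 78 moved by over 1.5 times.

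Replicate numbers did not pair the mice. Over 33 pairs with the same number the correlation of deviations ran from -0.42 to 0.45 (median -0.02), 10 were over 0.1, and 2 mice correlated best with their own number. With the replicate block 6, 4 and 7 members were called in the 3 comparisons, and *Vim* under treatment was the only call of a member that changed (-0.21, adjusted p = 0.0539). Depth limits *Twist2*, with 2 to 35 counts per library.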
